A study of Homo sapiens with 23 samples.

Results

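The 9 genes described here encode the prolactin receptor (PRLR), 6 signal transducers and activators of transcription (STAT2, STAT3, STAT4, STAT5A, STAT5B and STAT6) and 2 inhibitors that STATs induce (SOCS2 and CISH). They were chosen by name, with earlier results of these data known, from the 20033 protein-coding genes with a position in RefSeq (GRCh38.p14). Loops were assigned to them by position alone. A loop counted for a gene when either of its 5 kb bins overlapped the gene body widened by 10 kb on each side. By this rule 19 of the 9591 loops of the T30 list and 10 of the 7075 loops of the T0 list belonged to the set.

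The loops came from HiChIP, in which neighbouring chromatin fragments are ligated and those bound by a protein, here the progesterone receptor, are pulled down with its antibody. Both libraries were made from T47D, an established line of luminal breast cancer that carries the receptor. One library is labelled T30, with PR5020 in its title (read here as receptor, PR, plus R5020, a synthetic progestin), and the other is labelled T0. For the experiments T47D cells were kept in medium without phenol red, with serum stripped of steroids by charcoal and then with no serum, per the labels; neither the dose nor the unit of the time is stated for these libraries. Each condition had 1 library, so no difference below has a replicate check and no test was made. The intervals cover counting error only, and loops that share an end are not independent. The T30 list summed to 135538 contacts and the T0 list to 127457 (read pairs between 2 bins), which covers listed loops only, so the depth of sequencing is unknown. Listed loops had p-values in the authors' model of up to 2.84e-05 in T30 and up to 0.000233 in T0. Fewer contacts and less receptor on the DNA cannot be told apart in HiChIP, and the lists hold no expression values against which the cell line could be checked.

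Prolactin binds its receptor at the surface of mammary epithelial cells, and the kinase JAK2 bound to the receptor then phosphorylates STAT5A and STAT5B. Phosphorylated STATs pair, enter the nucleus and bind DNA elements that read TTC and GAA around a short spacer. SOCS2 and CISH belong to the targets of STAT5 and dampen signalling at cytokine receptors. Progesterone and prolactin act together in the growth of the mammary alveoli, and PRLR and STAT5A are known as genes that progestins raise in breast cancer cells.

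In T30, 7 of the 9 genes had a listed loop, and in T0 6 had one, 5 of them in both libraries. Over all protein-coding genes 32.1% had a loop in T30 and 27.2% in T0 by the same rule. Because the members were chosen with earlier results known, the shares over all genes are given as a description only. Loops were more numerous in T30 at 7 members (PRLR, STAT3, STAT5A, STAT5B, STAT6, SOCS2 and CISH), fewer at STAT2 and equal, at 0, at STAT4. The neighbours STAT3, STAT5A and STAT5B drew on the same 5 loops of T30 and 3 of T0, so their directions are not separate. Over all genes 20.8% had more loops in T30 and 15.3% had fewer. At q-values under 0.01 the tally was 4 members with more loops in T30, 1 with fewer (STAT6) and 4 equal, and in genes with no widening it was 5, 2 and 2. With counts under 3 set to 3, 1.8% of all genes were at least 2-fold higher in T30 and 0.824% at least 2-fold lower. No member could be called by this measure, which needs 6 loops in a library, since the members had 5 at most. The Poisson intervals of the 2 libraries overlapped at every member. Per 100 kb of widened gene, STAT6 had the most loops, 13.9 in T30 and 11.1 in T0, and PRLR, the longest gene of the set, had 1.98 in T30 and 0 in T0.

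**Figure D1:**
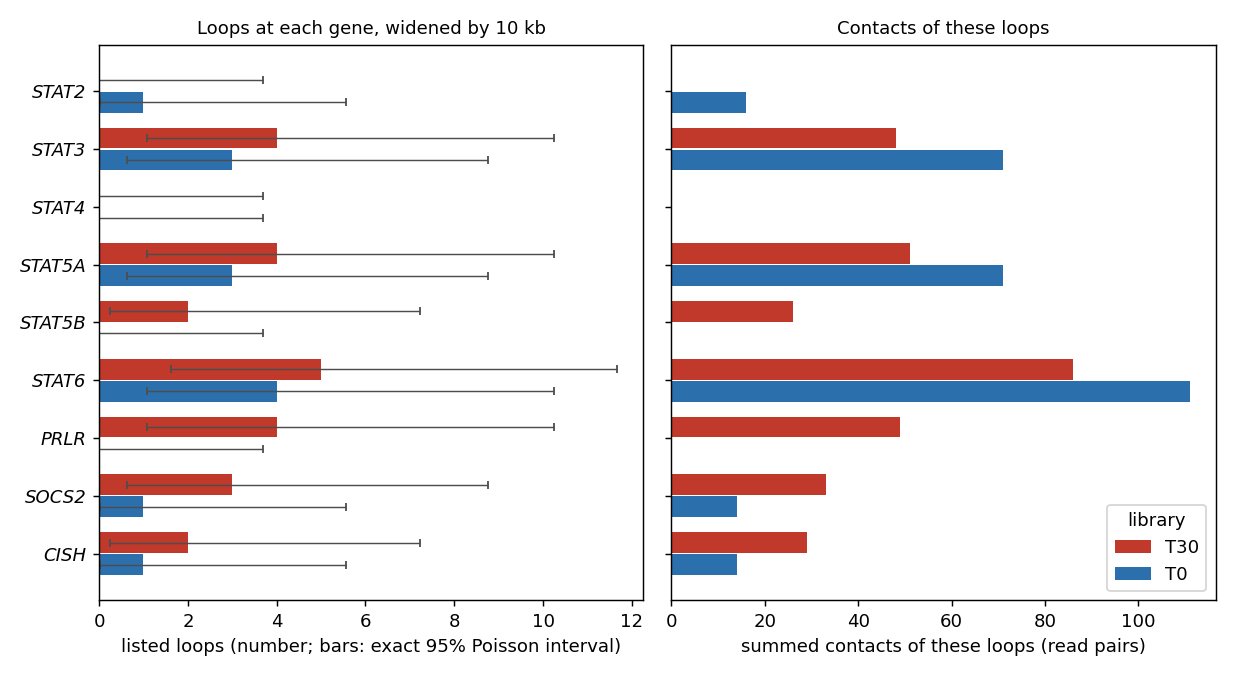
Listed loops (left, with exact 95% Poisson intervals) and their summed contacts in read pairs (right) at each of the 9 genes, widened by 10 kb, in the T30 library (red, upper bar) and the T0 library (blue, lower bar). PRLR and STAT5B had loops in T30 alone, STAT2 in T0 alone, and STAT6 had the most loops in both libraries.

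The 19 distinct loops of T30 summed to 260 contacts and the 10 of T0 to 226. A T30 loop of the set had a median of 12 contacts (9 to 31), and a T0 loop 16.5 (13 to 52). The whole lists had medians of 13 and 14 contacts. The median span was 75 kb in T30 (30 to 530) and 107.5 kb in T0 (45 to 530), where the whole lists had 80 and 190 kb. An end outside every protein-coding gene was found for 12 of the 19 T30 loops, or 63.2% (exact binomial interval 38.4 to 83.7), and for 2 of the 10 T0 loops, or 20% (2.52 to 55.6). Over the whole lists the shares were 56.6% in T30 and 64.2% in T0, in the opposite order.

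PRLR, the receptor gene, had 4 loops in T30 and 0 in T0, which made it the member with the largest difference. It lies on chromosome 5 (35048756 to 35230487) on the minus strand, with a listed start at the upper end, 35230487, and another inside the gene, at 35118122. All 4 T30 loops left the part of the gene above the inner start and ran upstream into a stretch with no protein-coding gene. Of these, 14 contacts joined the bin at 35225001, next to the bin of the upper start site, with the bin at 35305001, over 80 kb. A further 14 contacts joined the bin at 35205001 with that at 35300001, over 95 kb. The farther bin at 35475001 received 12 contacts from 35225001, over 250 kb, and 9 from 35195001, over 280 kb. The loops thus met upstream at 2 places, and none ran to a neighbouring gene.

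The upstream bins were themselves joined to each other in T30. The bin at 35305001 had 5 loops in T30 and 0 in T0, and the bin at 35475001 had 6 and 0. The loop between these bins had 17 contacts over 170 kb, and the bin at 35475001 had 19 contacts with that at 35440001. Between PRLR and the next gene, SPEF2, lies a stretch of 387 kb (35230488 to 35617862). The T30 list held 11 loops with at least 1 end in this stretch, with 139 contacts, and the T0 list held 0. Of the 11 loops, 6 had both ends inside the stretch. The others were the PRLR loops described above and a loop of 8 contacts from 35475001 to 35920001 in the gene CAPSL, over 445 kb. The nearest end of any T0 loop lay 129 kb from PRLR. The 292 T0 loops within 10% of 80 kb had a median of 17.5 contacts and a minimum of 10, and the 645 near 250 kb had a median of 13 and a minimum of 8, so the PRLR loops of these spans in T30, with 14 and 12 contacts, lay between the minimum and the median of T0. Whether the T0 library could have shown them was not tested. Within 1 Mb of PRLR the lists held 16 loops in T30 and 6 in T0, so T0 loops were listed nearby but not in this stretch. On the whole of chromosome 5 there were 524 and 400 loops, a ratio of 1.31, against 1.36 over all listed loops. The exact binomial interval of the T30 share of the PRLR loops was 39.8% to 100%.

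STAT5B, STAT5A and STAT3 lie side by side on chromosome 17 from 42199177 to 42388442, and a loop could count for more than 1 of them. STAT5A and STAT5B carry the prolactin signal, and STAT3 transmits signals of the interleukin-6 family. The 3 genes together had 5 distinct loops with 63 contacts in T30 and 3 with 71 contacts in T0. All 5 T30 loops had both bins on the block of the 3 widened genes, and all 3 T0 loops had 1 bin beyond it. For 1 T0 loop this rests on a shift of 5 kb, given below. Loops of the whole lists were also shorter in T30, with a median span of 80 kb against 190 kb in T0. Whether the contrast at this block goes beyond that was not tested. Within 1 Mb of STAT3 there were 89 loops in T30 and 75 in T0.

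In T30 some loops joined neighbouring STAT genes and others stayed at 1 of them. The loop with most contacts, 15 over 45 kb, joined the bin at 42240001 inside STAT5B with that at 42285001, which holds the 3 listed start sites of STAT5A and the upper end of STAT5B. A loop of 11 contacts joined the bin at 42290001 in STAT5A with that at 42390001, next to the STAT3 start-site bin, over 100 kb. Another of 11 contacts joined 42305001 in STAT5A with 42385001, which holds the STAT3 start site at 42388442. That same STAT3 bin had a loop of 12 contacts to 42330001 near the other end of the gene, over 55 kb. The fifth loop, of 14 contacts, ran from 42320001 in STAT3 to 42395001, beyond its start. Counting a bin for every widened gene it overlapped, 3 loops joined STAT3 with STAT5A, 1 STAT5A with STAT5B and 1 STAT3 with STAT5B, while 3 had both ends at STAT3 and 1 both ends at STAT5B. By gene bodies without widening, the loop of 11 contacts between 42305001 and 42385001 was the one that joined STAT5A with STAT3. Among T0 loops within 10% of the same span, the minimum and median were 14 and 24 contacts at 45 kb, and 11 and 21 at 55 kb. They were 10 and 17.5 at 80 kb, and 9 and 17 at 100 kb. The T30 loops of these spans, with 15, 12, 11 and 11 contacts, lay between the minimum and the median each time. Whether the T0 library could have shown them was not tested.

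In T0 all 3 loops started from 1 bin, at 42320001 in the last part of STAT3, and ran past its start to neighbours. The one with most contacts, 43 over 80 kb, reached the bin at 42400001 in CAVIN1, a gene for a coat protein of caveolae. It overlapped the T30 loop of 14 contacts when the authors' merged ranges were compared, and its far bin lay 5000 bp beyond that of the T30 loop. The others reached ATP6V0A1, a gene for a subunit of the proton pump, at 42470001 with 13 contacts and at 42520001 with 15. No T30 loop of these genes had its bin in CAVIN1 or ATP6V0A1. The bin at 42320001 had 1 loop in T30 and 3 in T0, while the start-site bins of STAT3 (2 loops and 0) and STAT5A (1 and 0) had loops in T30 alone. These T0 loops counted for STAT5A through the widening alone, since their nearest end lay 8.06 kb from it. At the p-value that both lists reached, the T0 loop of 13 contacts (p = 0.000231 in the authors' model) would not be listed. STAT5B itself had 2 loops in T30 and 0 in T0, and both of the 2 also counted for STAT5A.

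**Figure D2:**
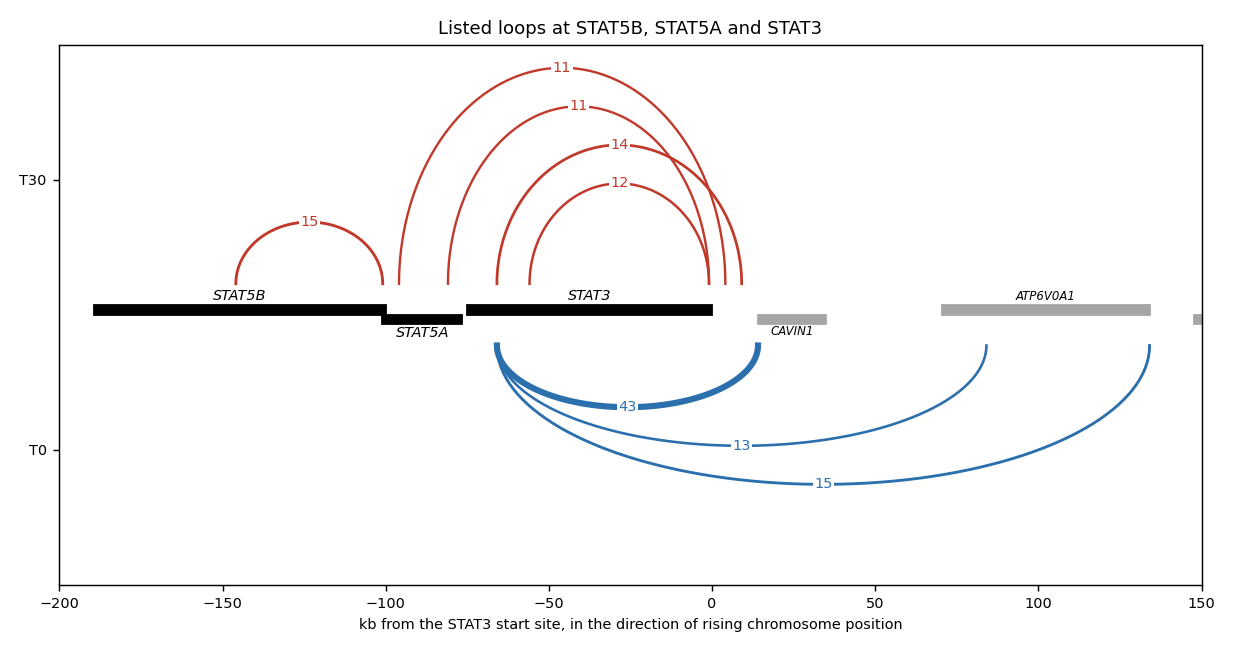
Listed loops at STAT5B, STAT5A and STAT3, with T30 loops above the genes and T0 loops below, on an axis of kb from the STAT3 start site. Numbers and line widths give contacts in read pairs, arc heights only keep the loops apart, members are black and other genes grey. The T30 loops lie on the 3 genes and up to 10 kb beyond STAT3, and the T0 loops run from STAT3 towards CAVIN1 and ATP6V0A1.

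STAT6, which carries signals of interleukin-4 and interleukin-13, had the most loops of the set, 5 in T30 and 4 in T0, with 86 and 111 contacts. Within the gene body alone, with no widening, the order turned, with 1 loop in T30 and 3 in T0. STAT6 lies on chromosome 12 (57095408 to 57111362, minus strand). In both libraries it was joined with its neighbours NEMP1, a gene for a protein of the nuclear envelope, and LRP1, a gene for a lipoprotein receptor. Towards NEMP1 there was a loop of 20 contacts in T30 (57070001 with 57110001) and one of 52 in T0 (57065001 with 57110001). A further T30 loop towards NEMP1 had 12 contacts. Towards LRP1 there were loops of 31 contacts (57120001 with 57175001) and 14 contacts in T30, and one of 23 in T0 (57110001 with 57180001). The NEMP1 loop had most contacts in T0 and the LRP1 loop in T30.

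The STAT6 start-site bin, from 57110001 to 57115000, had 1 loop with 20 contacts in T30 and 3 loops with 94 contacts in T0. The bins listed for the T30 loops to LRP1 were those at 57115001 and 57120001, upstream of the start and outside every protein-coding gene. The merged range of the loop of 31 contacts, 30 kb long at this end, also covered the start-site bin, so these counts depend on which bin of a range is listed. T0 had 2 loops to the bin at 57005001, which overlaps TAC3, the neurokinin B gene, and ZBTB39, a zinc finger gene, with 19 contacts from the STAT6 start-site bin and 17 from 57120001. T30 had none there, but it had a loop of 9 contacts over 360 kb from the bin at 57085001, in the widened part of STAT6 and at the start site of NAB2, to NACA, a gene for a chaperone of nascent chains. The STAT6 start-site bin also overlaps a lncRNA gene, LOC124902946, and the loops of these genes cannot be told apart there.

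STAT2, which acts in the response to type I interferon, had 0 loops in T30 and 1 in T0. That loop joined the bin at 56355001 on chromosome 12 with SPRYD4 at 56465001, with 16 contacts over 110 kb. Its p-value of 0.00015 in the authors' model was above the largest listed in T30. STAT4, which transmits interleukin-12 signals in lymphocytes, had none in either library. Around STAT4, on chromosome 2, the lists held 0 loops in T30 and 4 in T0 within 1 Mb, and the nearest loop end lay 1450 kb from the gene in T30 and 413 kb in T0. Around STAT2 they held 37 and 44.

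**Figure D3:**
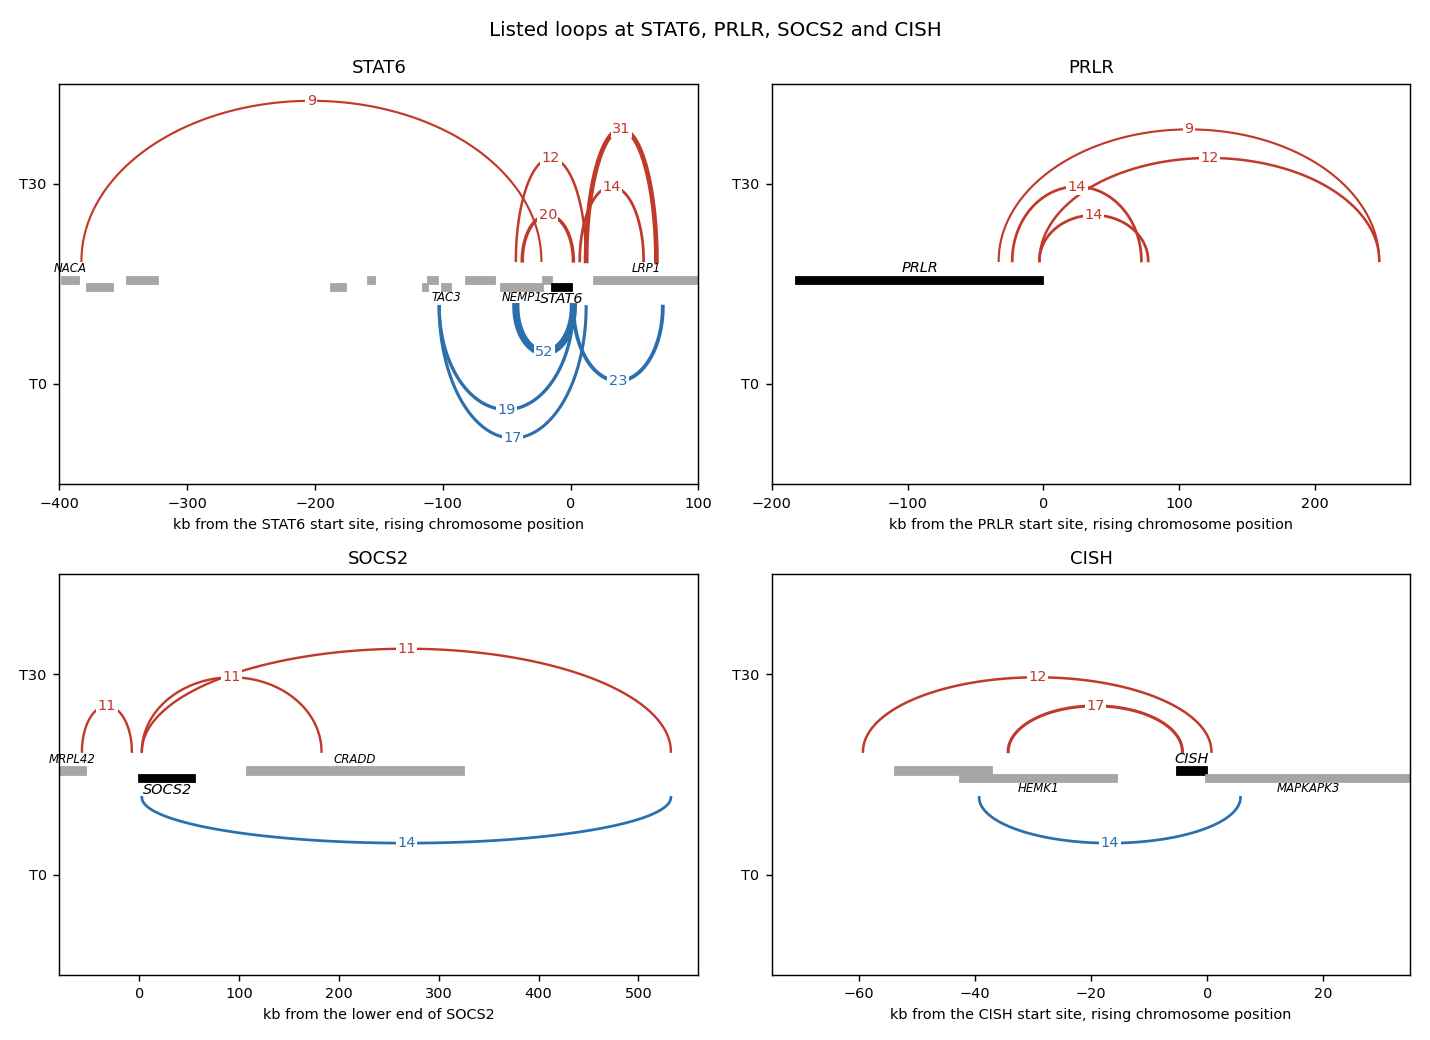
Listed loops at STAT6, PRLR, SOCS2 and CISH, with T30 loops above the genes and T0 loops below, on axes of kb from the start site (for SOCS2, from its lower end). Numbers and line widths give contacts in read pairs, arc heights only keep the loops apart, members are black and other protein-coding genes grey. PRLR has 4 T30 loops and none in T0, and SOCS2 has a loop of 530 kb in both libraries.

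SOCS2, an inhibitor of growth hormone and prolactin receptor signalling, had 3 loops in T30 and 1 in T0. The longest loop of the set was found in both libraries with the same bins. It joined the bin at 93570001 on chromosome 12, in the lower end of SOCS2, with the bin at 94100001, over 530 kb, and had 11 contacts in T30 and 14 in T0. The SOCS2 bin also overlaps the antisense gene SOCS2-AS1, and the far bin overlaps the lncRNA gene LOC124902986. From the same SOCS2 bin, T30 also listed 11 contacts with 93750001 in CRADD, a gene for an adaptor of cell death, over 180 kb. The last T30 loop, of 11 contacts, joined the bin at 93560001 beside SOCS2 with MRPL42, a mitochondrial ribosome gene. In the surroundings the order was the opposite: 14 loops in T30 and 26 in T0 were listed within 1 Mb.

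CISH, the inhibitor first known as a gene that cytokines induce through STAT5, had 2 loops in T30 and 1 in T0. It spans 50606489 to 50611774 on chromosome 3, on the minus strand. A loop of 17 contacts in T30 joined the bin at 50605001 with 50575001 in HEMK1, a methyltransferase gene, and a T0 loop of 14 contacts joined 50615001 with 50570001 in HEMK1 and C3orf18. A second T30 loop, of 12 contacts, joined the bin at 50610001 with one at 50550001 that overlaps no protein-coding gene. The bin at 50610001 holds the start sites of CISH and of MAPKAPK3, a kinase gene, so its loop cannot be given to either. The T0 end lay 3.23 kb from CISH, at a start site of MAPKAPK3, and counted through the widening alone. Its p-value of 0.000193 in the authors' model was above the largest listed in T30. The surroundings were sparse and also higher in T30, with 10 loops in T30 and 3 in T0 within 1 Mb.

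The promoter of CISH is printed because its sequence sets it apart from the other members, and those of STAT6 and STAT3 because loops met at their start-site bins. The sequences are RefSeq's on GRCh38.p14, 250 bases before to 50 bases after the start, on the minus strand for all 3 genes. In CISH (chr3:50611725-50612024) capitals mark TTCNNNGAA, the core of the STAT element. In STAT6 (chr12:57110240-57110539) and STAT3 (chr17:42388393-42388692), where this core is absent, capitals mark the bases from the start site on.
CISH: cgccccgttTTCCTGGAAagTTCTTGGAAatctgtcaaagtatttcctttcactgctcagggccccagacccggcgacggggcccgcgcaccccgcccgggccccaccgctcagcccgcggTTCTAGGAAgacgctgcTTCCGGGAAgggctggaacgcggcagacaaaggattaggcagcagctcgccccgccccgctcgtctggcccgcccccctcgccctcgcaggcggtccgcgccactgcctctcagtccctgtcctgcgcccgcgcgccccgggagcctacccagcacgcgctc
STAT6: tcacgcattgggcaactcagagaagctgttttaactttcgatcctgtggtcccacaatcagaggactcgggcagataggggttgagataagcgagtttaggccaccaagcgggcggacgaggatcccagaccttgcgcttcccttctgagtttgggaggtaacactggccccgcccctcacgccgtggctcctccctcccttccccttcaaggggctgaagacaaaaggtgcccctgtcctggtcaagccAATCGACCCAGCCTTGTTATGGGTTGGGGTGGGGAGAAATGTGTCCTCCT
STAT3: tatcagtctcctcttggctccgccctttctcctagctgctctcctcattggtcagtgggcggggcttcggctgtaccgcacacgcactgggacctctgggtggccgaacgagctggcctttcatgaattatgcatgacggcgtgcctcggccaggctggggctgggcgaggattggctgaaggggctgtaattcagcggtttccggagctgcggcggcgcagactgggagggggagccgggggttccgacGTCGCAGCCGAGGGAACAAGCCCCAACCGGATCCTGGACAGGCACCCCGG

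The CISH promoter held 4 matches, TTCCTGGAA at positions 10 to 18, TTCTTGGAA at 21 to 29, TTCTAGGAA at 122 to 130 and TTCCGGGAA at 139 to 147, counted from 1 at the 5′ end of the printed sequence. They form 2 pairs upstream of the start. Both motifs searched read the same on both strands, and the 4 matches do not overlap each other. Of the 35116 promoters of 300 bases in the table, 7.66% held at least 1 match and 7 promoters, or 0.0199%, held 4 or more. Some of the 7 overlap each other (ZNF225 with ZNF225-AS1, and the entries of ZNF112), so they are not 7 separate places. BCL6, a transcriptional repressor and a member of the target list below, had another of these 7, and was looked up after this count was seen. Among the 12 listed promoters of 8 members CISH was the only one with a match; SOCS2 was not matched in the table. ACANNNTGT, the core of the element bound by the progesterone receptor and related steroid receptors, was in none of the 12, and in 5.37% of all promoters. The full steroid receptor palindrome was in none of the 12 and in 1 promoter of the table. A match is a run of letters and not a bound site, and the windows cover 300 bases of bins of 5 kb.

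Start sites were then set beside the loops of all members. A start-site bin with a loop was found for 4 members in T30 (STAT3, STAT5A, STAT6 and CISH) and for 1 in T0 (STAT6), out of 8 members with a listed start. Over the 15842 protein-coding genes with a listed start, 9.93% had such a loop in T30 and 9.58% in T0. The PRLR starts had none, but the bin beside that at 35230487 had 2 in T30, and the STAT2 start had 1 in the bin beside it in T0. A shift of a loop end by 1 bin therefore moves a gene in or out of this count.

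Of the loops of the set, 5 of 19 in T30 (26.3%, exact binomial interval 9.15 to 51.2) and 5 of 10 in T0 (50%, 18.7 to 81.3) were found in the other library, when the authors' merged ranges of both ends overlapped. Over the whole lists the shares were 16.4% and 22.2%. The 5 pairs were the STAT6 loops to NEMP1 and to LRP1, the long SOCS2 loop, the STAT3 loop on the side of CAVIN1, and the CISH loop to HEMK1. The SOCS2 loop alone had identical bins, and the ends of the others were shifted by 5000 to 15000 bp in sum.

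The median T30 to T0 ratio over the 1389 matched pairs of the whole lists was 0.667, and log2 ratios below are relative to it. The STAT3 loop, with 14 contacts in T30 and 43 in T0, had a log2 ratio of -1.03 (exact 95% interval -2.02 to -0.14), and 0.936% of all pairs had a lower ratio. The STAT6 loop to NEMP1, with 20 and 52 contacts, had -0.79 (-1.62 to -0.02). The STAT6 loop to LRP1, with 31 in T30 and 23 in T0, had 1.02 (0.19 to 1.86), and 95.8% of pairs were lower. Its bins lay 55 kb apart in T30 and 70 kb apart in T0, and those of the CISH pair 30 and 45 kb. Whether the unlike spans moved these ratios was not tested. The intervals at CISH (17 contacts in T30 and 14 in T0; log2 ratio 0.87, -0.24 to 2.00) and SOCS2 (11 and 14; 0.24, -1.05 to 1.48) included 0. With no scaling, the ratio was 1.35 (0.761 to 2.42) at STAT6 and LRP1, whose interval then included 1, 0.385 (0.217 to 0.655) at STAT6 and NEMP1 and 0.326 (0.165 to 0.607) at STAT3. It was 1.21 (0.563 to 2.66) at CISH and 0.786 (0.323 to 1.86) at SOCS2, where the direction turned with the scaling.

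The merged ranges around the shared loops also differed. At STAT6 and LRP1 the T30 range covered 30 kb by 15 kb with 202 summed contacts, and the T0 range 5 kb by 5 kb with 23. At CISH and HEMK1 the T30 range covered 15 kb by 15 kb with 93 contacts and the T0 range 5 kb by 5 kb with 14. At STAT3 the T30 range covered 15 kb by 15 kb with 61 contacts, and the T0 range 5 kb by 25 kb with 149. Summed contacts move with the length that was merged, so these sums are given as descriptions.

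**Figure D4:**
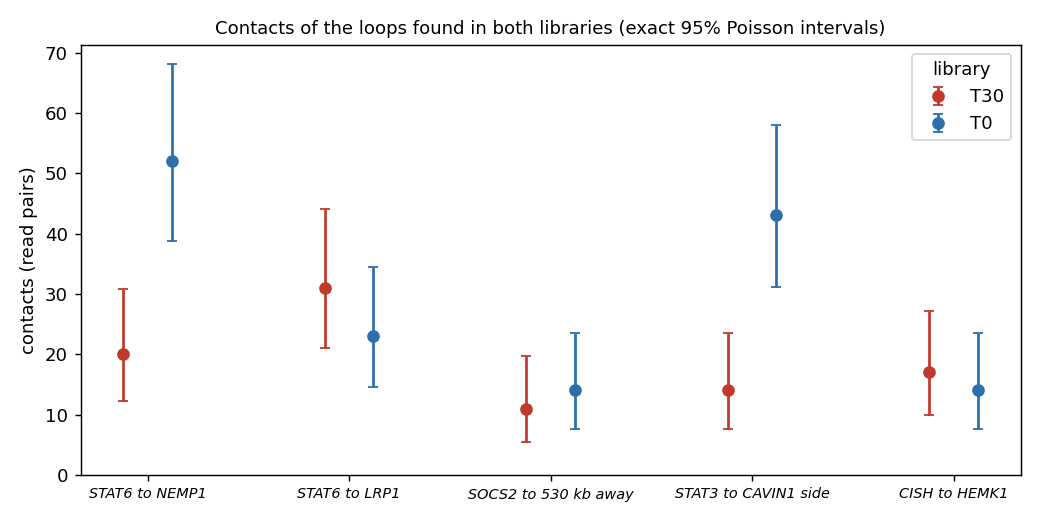
Contacts in read pairs of the 5 member loops found in both libraries, in T30 (red, left) and T0 (blue, right), with exact 95% Poisson intervals. The STAT6 to NEMP1 loop and the STAT3 loop have 20 and 14 contacts in T30 against 52 and 43 in T0, and the intervals of the other 3 loops overlap.

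The rest of the JAK-STAT pathway was taken from a list of 45 genes with no member in it: kinases, receptors, inhibitors, phosphatases and cofactors. Of these, 23 had a loop in T30 and 14 in T0, 12 of them in both. There were more loops in T30 at 15, fewer at 6 and equal numbers at 24, and the median was 1 loop in T30 and 0 in T0, where the median of all genes was 0 in each. Over all genes 32.1% had a loop in T30 and 27.2% in T0, with more loops in T30 at 20.8% and fewer at 15.3%. The 2-fold difference was passed by 1 gene of the list towards T30 and 2 towards T0, beside 1.8% and 0.824% of all genes. Past the 2-fold difference was GHR, the growth hormone receptor and a close relative of PRLR on the same chromosome, with 6 loops in T30 and 0 in T0, or at least 2-fold higher against the floor of 3. GRB2, an adaptor of receptor tyrosine kinases, was past it in the other direction with 4 loops in T30 and 10 in T0, and so was PIAS1, a SUMO ligase gene, with 1 and 6. Besides GHR and GRB2, most loops over both libraries were found at IL6ST, the shared receptor of the interleukin-6 family on chromosome 5 (3 in T30 and 5 in T0), SOCS7, an inhibitor (2 and 5), and PIAS1. With 6 loops in sum, as at GHR, followed IL4R, the interleukin-4 receptor (5 in T30 and 1 in T0), SOCS3, an inhibitor of IL6ST signalling (3 and 3), and PTPN1, a phosphatase gene (3 and 3). JAK2, the kinase that the prolactin receptor uses, had none in either library, and was picked for its role with its value known. The other receptor genes of the list on chromosome 5 were LIFR, with 3 in T30 and 0 in T0, and OSMR and IL7R, with none in either library.

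Of 20 genes known as targets of STAT5 or prolactin or as partners in mammary development, 12 had a loop in T30 and 10 in T0, 9 of them in both. More loops in T30 were listed at 6 and fewer at 4. Among all protein-coding genes 32.1% had a loop in T30 and 27.2% in T0, with more in T30 at 20.8% and fewer at 15.3%. The 2-fold difference was passed by 2 genes in each direction, beside 1.8% of all genes towards T30 and 0.824% towards T0. Past the 2-fold difference towards T30 were EHF, an epithelial ETS factor, with 13 loops in T30 and 2 in T0, and BCL2L1, which encodes the survival factor BCL-XL, with 7 and 0. Past it towards T0 were ELF5, the ETS factor of the alveolar lineage, with 2 loops in T30 and 7 in T0, and CCND1, the cyclin D1 gene, with 3 and 6. The contacts of CCND1 had the opposite order, 73 in T30 and 68 in T0. BCL6 had most loops of the list, 13 in T30 and 21 in T0, and GATA3, a luminal transcription factor, had 7 and 6. The milk protein genes CSN2, CSN1S1 and LALBA, picked for their role with their values known, had none in either library.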

How the data were processed

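Loops were analysed in 2 HiChIP libraries of T47D cells, 1 labelled T30 and 1 labelled T0; the other samples of the 23 in the series were not used here. The deposited lists hold FitHiC loops at q-values under 0.05, after merging of near contacts, per the file names and values. Contacts are deposited whole-number counts, not normalized, between bins of 5 kb, per the file headers, which also give the p-value and q-value the authors obtained per loop, the range and summed count of its merged cluster, and a fraction per cluster that was not used. Bowtie and the builds hg38 and GRCh38 are named in the submitters' processing notes with no role; pooling of replicates is not given in the sources used here.

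Gene bodies, start sites and promoters came from RefSeq tables of GRCh38.p14. A gene's loops are those with a bin overlapping the gene widened by 10 kb, and its partners the distinct bins joined to it. Loops were shared when merged ranges overlapped by at least 1 bp at both ends; for contacts each loop was paired once, nearest bins first. Intervals are exact at 95%. Counts under 3 were set to 3 before a 2-fold difference was called.

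The members and lists were chosen with earlier results of these data known. The text names all members, their loops, genes at partner bins, and list genes past the 2-fold difference or among the 5 with most loops; JAK2, the other chromosome 5 receptors and the milk protein genes were added. The counting of loops and partners per gene, and matching by identical bins or within 10 kb, were tested on simulated data. Matching by merged ranges, the contact ratios and the motif search were not part of that test. Scripts ran under Python 3.11.15 with scipy 1.17.1, pandas 2.3.3 and numpy 2.4.6; figures were drawn with matplotlib 3.10.9.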

Additional observations from a re-analysis of the deposited data

How the results depend on the processing

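Of 116 summary values recomputed under other settings, 103 stayed within 1.5 times of the reported one (shares of shared loops: within their interval), and of 162 single-gene loop counts 133 did. That range is wide for small counts: members with a loop in T0 were 4 in place of 6, and partner bins in T0 6 in place of 9, at q under 0.01. Some recomputed values could not move, so the tally overstates stability. The shortest member loop spanned 30 kb, so a minimum span of 20 kb removed none. The common p-value limit left the T30 list whole, and equal length left the T0 list whole. Counts of 0, as at STAT4, could not fall under a stricter setting. PRLR, STAT5B and SOCS2 had more loops in T30 under every setting except the start-site bin, chosen after seeing the data, and CISH under every setting. At start-site bins PRLR and STAT5B had 0 in both libraries, and SOCS2 could not be counted because it had no listed start site. STAT3 had equal numbers at q under 0.01 and in the unwidened gene, and STAT5A at q under 0.01. At start-site bins the set had 5 loops, 5 partner bins and 70 contacts at 4 members in T30, and 3 loops, 3 partner bins, 94 contacts and a median span of 70 kb at 1 member in T0. STAT6 had fewer loops in T30 in the unwidened gene, widened by 2500 bp, at q under 0.01, in lists of equal length and at start-site bins, and equal numbers, 4 and 4, with at least 10 contacts. With both lists held to p-values up to 2.84e-05, 7 members had a loop in T30 and 4 in T0, and STAT2 had none in either. This limit kept all 9591 T30 loops but only 4270 of the 7075 T0 loops. The share of all genes with a loop under it is not given, so the 7 and 4 have no background. Both lists held to identical bins shared 5.26% of T30 and 10% of T0 loops of the set. The median contact ratio of the 5 shared loops was 1.18 relative to all shared loops, 0.786 with no scaling and 0.739 with the ratio of summed contacts, so its direction rested on the scaling. No paired analysis was possible because each condition had 1 library, with no replicate number. No library could be left out, and the small number of loops per gene limits what could be seen.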

Other observations

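Partner bins of the set that joined other places were themselves compared. The NACA bin at 56725001 on chromosome 12, joined to STAT6 in T30, had 10 loops in T30 and 2 in T0, and its T30 loops with most contacts ran to PRIM1 (34 contacts), to a bin in no protein-coding gene (31) and to PTGES3 (30). The LRP1 bin at 57175001 had 4 loops in T30 and 0 in T0. The bin next to it, at 57180001, had 1 loop in each library. The T0 loop there was that of 23 contacts from STAT6, which was paired above with the T30 loop at 57175001. The far partner of SOCS2 at 94100001 had 3 loops in T30 and 5 in T0, with MRPL42 reached in both libraries (11 contacts in T30 and 12 in T0) and CRADD reached in T0 alone, with 18 contacts. The TAC3 and ZBTB39 bin at 57005001 was joined to NEMP1 in both libraries, with 13 contacts in T30 and 32 in T0, although its loops to STAT6 were listed in T0 alone.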
